A study of Rattus norvegicus with 4 samples.

Results

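The comparison set the control array at 24 h against the array labelled control at 6 h. These are 2 of the 4 arrays in a study of rat myometrium (the smooth muscle layer of the uterus), and both were chosen by their titles. The log2 difference was taken over 8740 of the 8799 probe sets, since 59 Affymetrix control probe sets were left out. All animals were rats aged 60 days whose ovaries had been removed a week before the injection. The 2 control groups received vehicle alone, and the 2 other groups received estradiol benzoate, an ester of estradiol, under the skin at 10 µg per kg of body weight. Uterine horns were taken 6 or 24 h later, which gave a control group and an estradiol group at each time. Each group was measured on 1 array that carried RNA from tissue pooled over 6 animals. The sources used here do not name the strain, the vehicle or the hour of the day of each collection.

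The myometrium answers estrogen through the receptor Esr1, and Igf1, Pgr and S100g are genes long used as readouts of that answer. Most tissues also run a circadian clock, a feedback loop in which Clock and Bmal1 drive Per and Nr1d genes that repress them in turn. Immediate-early genes encode transcription factors and regulators that answer many stimuli within hours, and interferon-induced genes encode antiviral proteins.

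Signals are in units of the Affymetrix MAS5 method, scaled to a trimmed mean of 500 on each array. Signals under an array's 40th percentile, between 89.5 and 108 units, were raised to that floor, since dim probe sets have no reliable order. A gene, represented by its brightest probe set, was called at a difference of 2-fold or more with the brighter array above its floor. Where the dimmer array was at the floor the fold is written as at least that value. With 1 array a group there is no replicate error, no difference between the 2 control arrays was tested, and each describes 2 pools of RNA. Both 24 h arrays share 1 scan day and both 6 h arrays another, so the effect of time cannot be told apart from that of scan day. Over the 4 arrays the ratio of 3′ to 5′ signal ranged from 1.05 to 1.15 for Gapdh, with values of 1.23 to 1.39 for Actb. The control transcripts spiked into the samples read 1.75-fold higher on the 24 h control array than on the labelled 6 h control array, and their part in any difference was not tested. In RNA from whole tissue, fewer cells of a type and less RNA per cell cannot be told apart.

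The labels at 6 h went against the estrogen targets Igf1, Pgr, S100g and Hsd11b2, but not against every gene of the estrogen answer. Igf1, a growth factor that estrogen induces in uterus, read 5182 on the 24 h estradiol array and 665 on the 24 h control array, but at 6 h 704 under the estradiol label and 7872 under the control label. The progesterone receptor gene Pgr read 2143 and 654 at 24 h, against 461 under the estradiol label and 2669 under the control label at 6 h. S100g (calbindin-D9k, a calcium-binding protein) and Hsd11b2, which inactivates corticosterone, had the same order. Igfbp5 went with the labels on its brightest probe set. There it read 937 under the estradiol label and the floor under the control label at 24 h, and 3792 and 626 at 6 h. Another of its probe sets read 562 and 830 at 24 h and 441 and 158 at 6 h, in the same order of labels. The arrays are therefore named by their labels throughout, and time and an exchange of the labels at 6 h cannot be told apart in the comparison of the controls.

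Between the 2 control arrays, 276 of 3454 measured genes (7.99%) were at least 2-fold higher at 24 h and 348 (10.1%) at least 2-fold lower. Over probe sets these counts were 519 (8.94%) and 582 (10%) of 5807. The lower side held more large differences, with 87 genes at least 4-fold lower and 29 at least 4-fold higher. Against the array labelled estradiol at 6 h, the 24 h control array had 170 of 5736 probe sets (2.96%) higher and 439 (7.65%) lower. Between the 2 control arrays the median over all measured genes was -0.02 on the log2 scale, a centre that the scaling itself sets. Estrogen targets, sterol enzymes, nucleolar proteins, cytokine genes and immediate-early genes had more lower than higher genes, and clock genes, enzymes of fat oxidation and matrix proteases more higher than lower. The list counts below are to be read beside the 7.99% higher and 10.1% lower over all measured genes. Those for the arrays labelled estradiol are to be read beside 5.8% higher and 10.1% lower of the 3394 genes measured there.

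**Figure D1:**
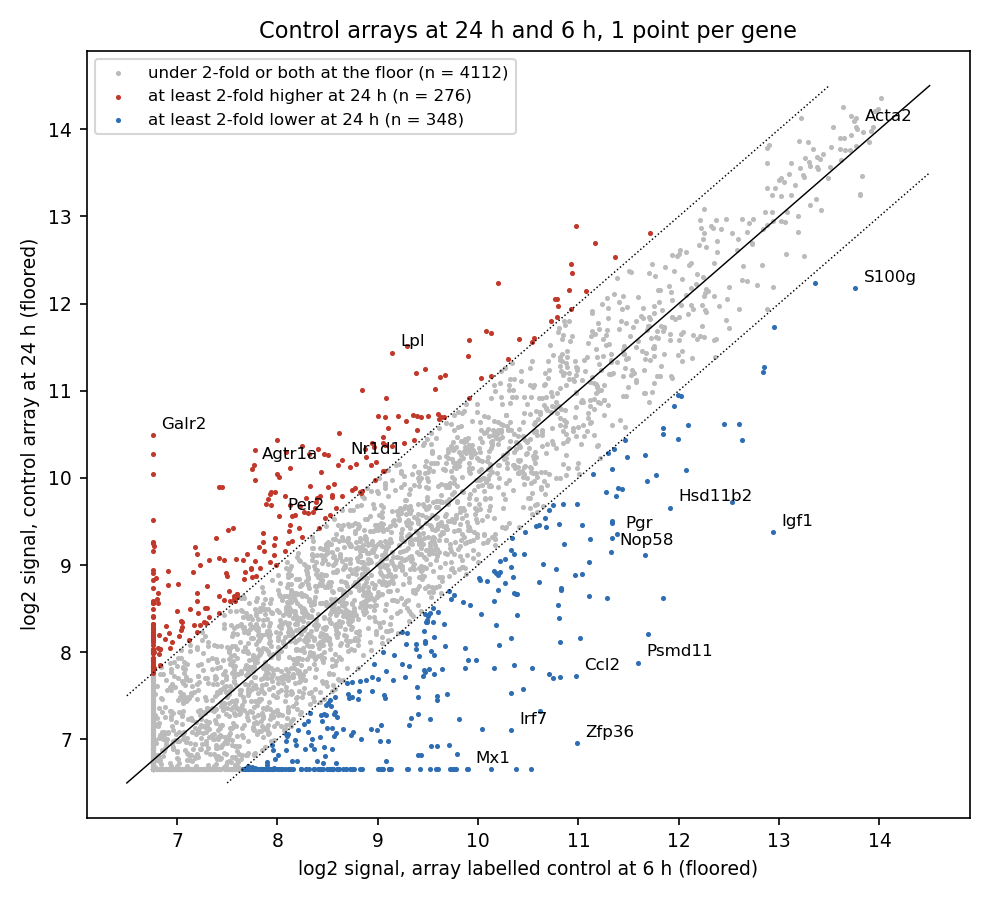
Log2 signal, raised to the floor, of each gene on the array labelled control at 6 h (horizontal) and on the control array at 24 h (vertical). Dotted lines mark 2-fold, points in a line at the left or bottom edge are at the floor of 1 array, and the 276 higher and 348 lower genes are coloured.

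**Figure D2:**
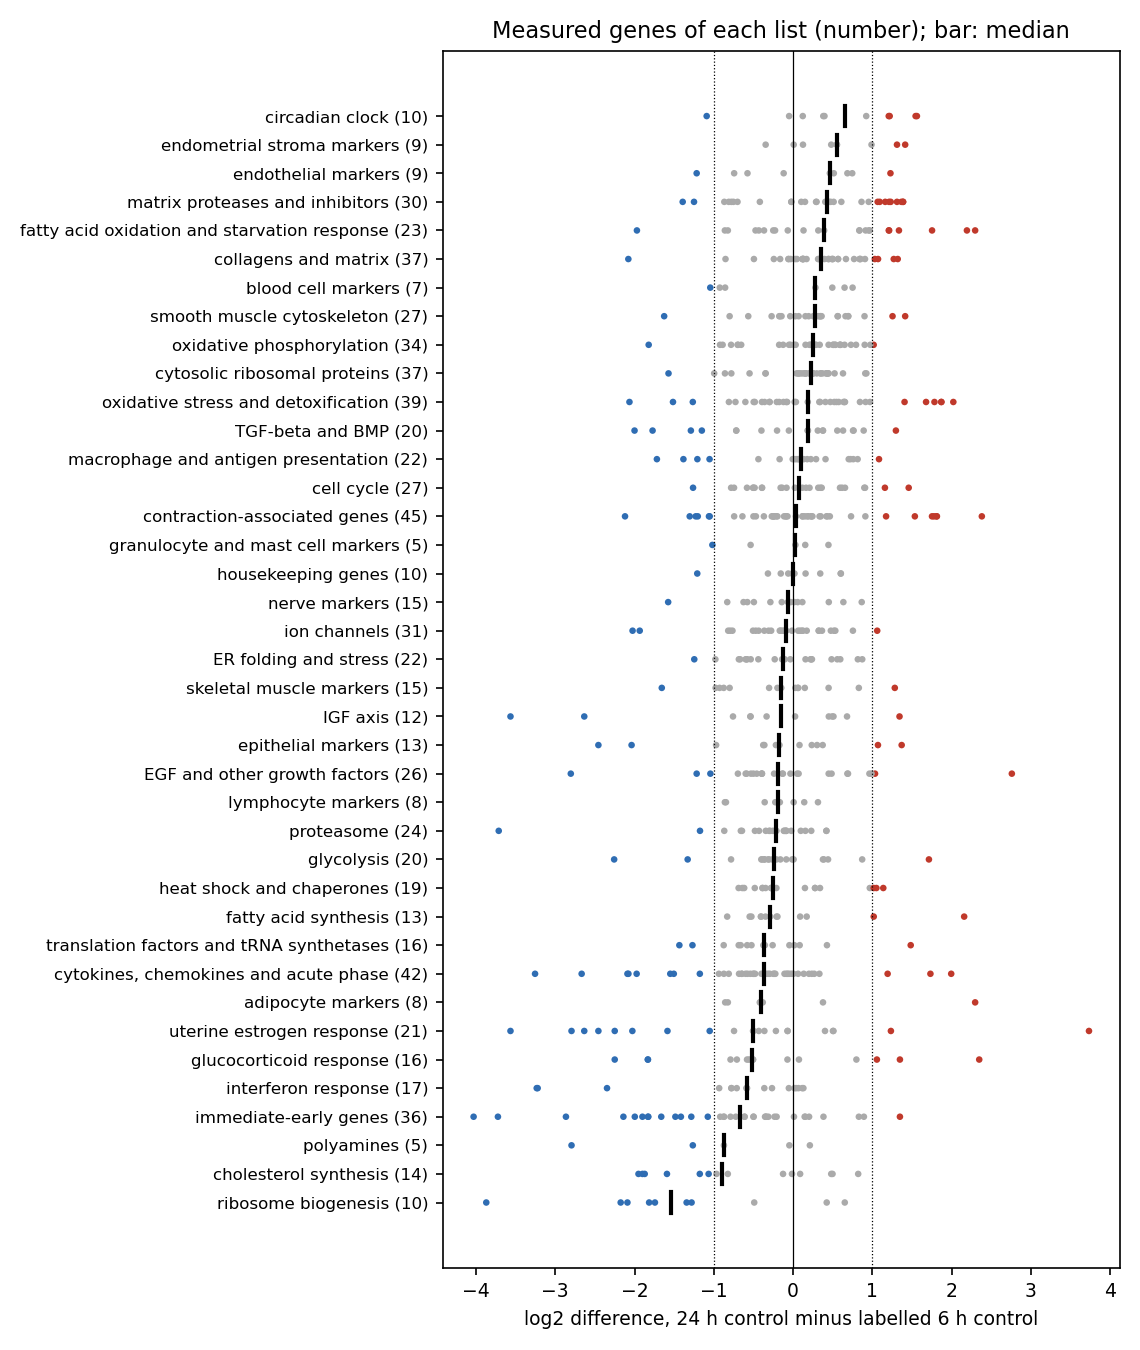
Log2 difference between the 24 h and the labelled 6 h control array for the measured genes of each gene list, ordered by median. The mesothelial list, with 3 measured genes, is not drawn. Dots are genes, red and blue dots passed the 2-fold rule, bars are medians, and the medians run from -1.54 for ribosome biogenesis to 0.66 for the circadian clock.

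Genes of the uterine answer to estrogen were more often lower than higher at 24 h. Of 21 measured genes of that list, 8 were at least 2-fold lower, Igfbp5 among them on its brightest probe set, and 2 higher, with a median of -0.50 against -0.02 over all genes. Within the list Igf1 had the largest difference on the lower side, 665 at 24 h and 7872 at 6 h, 11.8-fold lower, and 4 of its 5 probe sets passed the rule in that direction. Pgr was 4.08-fold lower and Cd24, a surface protein of epithelial cells, read 401 against 2199 and was 5.49-fold lower on its brightest probe set, with all 3 probe sets lower. S100g was 3.0-fold lower (4619 against 13858) and Hsd11b2 4.76-fold lower (809 against 3849). Odc1, the first enzyme of polyamine synthesis, read 185 against 1282, 6.94-fold lower, with both probe sets lower and the brighter one low on the 24 h control array alone. Oxtr, the oxytocin receptor, was at the floor at 24 h and read 209 at 6 h, at least 2.07-fold lower, a call that was lost with scaling to a common median. Of these named genes, Igfbp5 was lower at 24 h on the 2 arrays labelled estradiol as well, 4.05-fold. The others lay in opposite order there, where Igf1 was 7.36-fold and Hsd11b2 13.3-fold higher at 24 h.

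The 2 estrogen-list genes on the higher side were receptors. Galr2, a receptor for the neuropeptide galanin, read 1438 at 24 h and was at the floor at 6 h, at least 13.3-fold higher. Esr1, the estrogen receptor itself, read 254 at 24 h and was at the floor at 6 h, at least 2.35-fold higher, a dim signal whose direction did not hold with a higher floor. Igfbp5, which binds IGF proteins, has probe sets called in both directions, lower on the brightest (626 at 6 h and the floor at 24 h) and higher on another. Without the probe sets named for expressed sequence tags the list had 7 lower and 3 higher of 19, against 173 lower and 200 higher of 2216 genes over all. Gja1, the main gap junction protein of the myometrium in labour, read 107 and 113 and was not called.

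The enzymes of sterol synthesis build cholesterol from acetyl-CoA. Of 14 measured, 6 were at least 2-fold lower at 24 h and none higher, with a median of -0.90. The arrays labelled estradiol had 11 higher and none lower of 16 measured. Cyp51, which demethylates lanosterol, read 348 at 24 h and 1048 at 6 h and was 3.01-fold lower on its brightest probe set. Of its 5 probe sets 2 passed as lower, and the call was lost without suffixed probe sets. Sqle, which makes squalene epoxide, read 184 against 417 and was 2.26-fold lower. Idi1 and Mvd, which act earlier, on isoprenoid precursors, were at the floor at 24 h and at least 3.73-fold and 3.87-fold lower. Fdft1, which makes squalene, passed narrowly on 1 of 4 probe sets, at a bound of 2.09-fold, and came under 2-fold with scaling to a common median. With a floor at the 60th percentile Idi1, Mvd, Sqle and Fdft1 no longer passed, and 2 of the 11 sterol genes then measured were lower. Over all genes measured with that floor, 200 of 2476 were lower. Acat2, which joins acetyl units at the start of the pathway, read 143 against 524 on a probe set that was low on the 24 h control array alone. Insig1, the membrane protein that retains the sterol sensor, read 354 and 692 on its brightest probe set and did not pass. Its other probe set did, 322 against 805, 2.5-fold lower.

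Nucleolar genes had the lowest median of the 40 lists, -1.54 over 10 measured genes, with 7 lower and none higher. Nop58, a core protein of the particles that methylate ribosomal RNA, read 569 at 24 h and 2571 at 6 h, 4.52-fold lower. Nolc1, a chaperone of those particles, read 629.7 against 2218 and was 3.52-fold lower. Gnl3, the GTP-binding protein nucleostemin, read 1047 against 3505 and was 3.35-fold lower on its brightest probe set, with all 3 probe sets lower. Polr1b, a subunit of RNA polymerase I, read 263 against 668 and was 2.54-fold lower. For these 4 genes the labelled 6 h control array stood above all 3 other arrays, since the 24 h estradiol array read 810.1 and the array labelled estradiol at 6 h 435 for Nop58. Mybbp1a, a partner of the polymerase, had another pattern, 426 and 1815 on the control arrays and 1512 on the 24 h estradiol array.

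Cytokines, chemokines and their signalling genes had 8 lower and 3 higher of 42 measured, with a median of -0.37. Ccl2, the chemokine that draws monocytes, read 211 at 24 h and 2017 at 6 h, 9.55-fold lower, and both its probe sets were lower. Icam1, an adhesion protein for white cells, read 524 against 2210.2 and was 4.22-fold lower. Il4r, a receptor subunit for interleukins 4 and 13, read 1094 against 4297 and was 3.93-fold lower. Socs3, an inhibitor of cytokine signalling, was at the floor at 24 h and read 429 at 6 h, at least 4.26-fold lower. These 4 genes were also high on the labelled 6 h control array alone: on the 24 h estradiol array and the array labelled estradiol at 6 h Ccl2 read 420.5 and 289.5, and Icam1 569 and 532. Ccl11 (eotaxin), a chemokine for eosinophils, read 211 against 618 on the control arrays and 2073 on the 24 h estradiol array. Il33 and Il15, cytokines made by tissue cells, were 3.98-fold and 3.32-fold higher at 24 h.

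Immediate-early genes had 13 lower and 1 higher of 36 measured, with a median of -0.67. Cebpb, a transcription factor of the acute-phase response, read 476 at 24 h and 2097 at 6 h, 4.41-fold lower, and its relative Cebpd was 3.99-fold lower (240.0 against 958). Both had every probe set lower, 2 for Cebpb and 3 for Cebpd. Myc, which drives growth genes, read 343 against 723 and was 2.11-fold lower, a call also lost with that scaling. Sgk1, a kinase that glucocorticoids and salt induce, was 3.56-fold lower. The classical members were less far apart on their brightest probe sets, 874 and 1444 for Fos, 3199 and 4519 for Egr1, and 1122 and 1418 for Jun, none of which passed. Dimmer probe sets of Fos (2 of 3), Egr1 (2 of 4) and Jun (1 of 4) did pass as lower. Junb and Zfp36 gave their largest values on probe sets named for expressed sequence tags, and on their other probe sets read 343 against 719.9 and 559 against 1024. Klf9, a transcription factor that glucocorticoids induce, was the 1 higher gene, 1349 at 24 h and 530.2 at 6 h, 2.54-fold.

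Genes high on the labelled 6 h control array alone, that is at least 2-fold above each of the 3 other arrays, made up 52 of the 3454 measured genes (1.51%). By that definition all 52 were among the 348 lower genes, so counts among lower genes are to be read beside 52 of 348. The 52 included 4 of the 7 lower nucleolar genes, 5 of the 8 lower cytokine genes and 6 of the 13 lower immediate-early genes. Some genes belong to more than 1 list. Another 49 genes (1.42%) were low on the labelled 6 h control array alone, at least 2-fold under each of the 3 other arrays, which by definition places them among the 276 higher genes. Pdk2, Mpst, Rrad, Speg, Scd2 and Casp2, described below, had this pattern.

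Clock genes had the highest median of the 40 lists, 0.66 over 10 measured genes, with 4 higher and 1 lower. On the arrays labelled estradiol 7 of the 10 were lower at 24 h and none higher. Promoter sequences are shown for clock genes in which a clock motif was found in the 250 bases before the start site. These come from RefSeq, assembly GRCr8, and were matched by symbol for 8 of the 10 clock genes. Over the first table entry of each gene, Per2 held a D-box, and Bhlhe40, Bhlhe41 and Tef an E-box. Nr1d1 has 2 entries, of which the first held no E-box and the second, printed here, did. Capitals mark the D-box TTATGTAA (TTACATAA on the other strand), which Dbp and its relatives bind, in Per2 at chr9:99496994-99497243 on the minus strand, and the E-box CACGTG (the same on both strands), which Clock with Bmal1 and Bhlhe40 bind, in Nr1d1 at chr10:84229455-84229704 on the minus strand and in Bhlhe40 at chr4:143174200-143174449 on the plus strand.
Per2: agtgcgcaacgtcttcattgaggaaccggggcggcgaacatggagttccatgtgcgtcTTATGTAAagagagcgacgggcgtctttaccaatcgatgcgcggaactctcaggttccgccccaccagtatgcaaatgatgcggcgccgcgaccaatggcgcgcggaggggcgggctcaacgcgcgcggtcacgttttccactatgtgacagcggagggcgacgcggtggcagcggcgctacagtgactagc
Nr1d1: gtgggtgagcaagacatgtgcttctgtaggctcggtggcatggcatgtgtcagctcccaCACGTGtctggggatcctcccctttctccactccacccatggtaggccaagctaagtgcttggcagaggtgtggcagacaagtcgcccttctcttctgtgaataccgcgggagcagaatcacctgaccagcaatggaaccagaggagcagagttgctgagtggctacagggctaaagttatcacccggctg
Bhlhe40: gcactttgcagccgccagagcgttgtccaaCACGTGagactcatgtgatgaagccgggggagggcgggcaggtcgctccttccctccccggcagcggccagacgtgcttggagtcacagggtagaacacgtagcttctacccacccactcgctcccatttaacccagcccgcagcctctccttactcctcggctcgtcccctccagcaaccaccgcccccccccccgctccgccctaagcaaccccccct
The matches start 192, 191 and 220 bases before the start sites, and none overlaps another motif searched. Over 27457 promoters of the same length 0.816% held the D-box and 5.79% the E-box. The window of Dbp held no E-box. A match is a description of these letters and not a site shown to be bound.

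Per2, a repressor of the loop, read 756 at 24 h and 259 at 6 h, 2.92-fold higher. Nr1d1 (Rev-erb alpha), the receptor that represses Bmal1, read 1181 against 400.1 and was 2.95-fold higher, with both probe sets higher. Its relative Nr1d2 read 1316 against 566, 2.33-fold higher, and Dbp, an output factor, 1674 against 725, 2.31-fold higher on its brightest probe set. Bhlhe40, a repressor that also answers other stimuli, was the lower gene, 179 against 382, 2.13-fold, and came under 2-fold with scaling to a common median. Bmal1 was dim at 244 and 129, a 1.90-fold difference that did not pass. On the arrays labelled estradiol Per2 read 143 at 24 h and 558 at 6 h, and Dbp 464 and 2329, so the higher array of each pair was the 24 h control and the array labelled estradiol at 6 h.

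Interferon-induced genes had 3 lower and none higher of 17 measured, with a median of -0.58, and the arrays labelled estradiol gave 3 lower and none higher with a median of -0.63. The 3 were Mx1, Mx2 and Irf7 on both pairs. Rsad2 (viperin) and Cxcl10, which were not on that list, are also known interferon-induced genes, and all 5 were lower at 24 h on both pairs. The promoters below, from RefSeq assembly GRCr8, have in capitals the interferon response element, searched as GAAA, any 2 bases and GAAA again (TTTC in place of GAAA on the other strand), which factors such as Irf7 bind. The windows are chr1:205800024-205800273 on the minus strand for Irf7, chr6:48788121-48788370 on the minus strand for Rsad2 and chr14:15988816-15989065 on the plus strand for Cxcl10.
Irf7: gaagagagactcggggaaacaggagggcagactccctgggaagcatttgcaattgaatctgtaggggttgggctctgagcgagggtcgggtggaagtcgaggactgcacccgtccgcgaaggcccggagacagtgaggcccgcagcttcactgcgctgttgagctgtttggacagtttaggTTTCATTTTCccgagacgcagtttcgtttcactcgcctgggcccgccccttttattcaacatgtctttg
Rsad2: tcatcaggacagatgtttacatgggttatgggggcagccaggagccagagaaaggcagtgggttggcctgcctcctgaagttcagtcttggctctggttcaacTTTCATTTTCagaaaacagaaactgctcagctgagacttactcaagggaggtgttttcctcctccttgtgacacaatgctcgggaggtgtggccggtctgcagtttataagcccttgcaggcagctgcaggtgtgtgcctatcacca
Cxcl10: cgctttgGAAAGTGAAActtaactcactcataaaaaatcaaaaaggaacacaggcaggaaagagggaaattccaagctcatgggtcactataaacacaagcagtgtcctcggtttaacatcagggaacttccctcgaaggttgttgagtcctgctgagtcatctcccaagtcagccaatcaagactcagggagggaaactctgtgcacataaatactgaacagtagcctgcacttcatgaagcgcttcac
The matches start 69, 147 and 243 bases before the start sites and overlap no other motif searched. The element was found in 902 of 27457 promoters of that length (3.29%), and in 10 of the 16 listed interferon genes with a promoter in the table. The window of Mx1 held none.

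Mx1, an antiviral GTPase, was at the floor at 24 h and read 949 at 6 h, at least 9.41-fold lower between the control arrays. On the arrays labelled estradiol Mx1 read 144 at 24 h and 797 at 6 h. Its relative Mx2 read 225 against 1147, 5.09-fold lower, and 255 against 787 on the other pair. Rsad2, which makes an antiviral nucleotide, read 113 against 693 and was 6.12-fold lower, and the other pair gave 159 against 747. Cxcl10, a chemokine for T cells, read 122 against 773, 6.35-fold lower, and on the other pair was at the floor at 24 h and read 709 at 6 h. Irf7, the factor that amplifies interferon genes, read 138 against 1285, 9.33-fold lower, on a probe set of the kind described below that was low on the 24 h control array, and 352 against 1212 on the other pair. For each of the 5 genes both arrays at 6 h lay above both arrays at 24 h, whichever way the labels at 6 h run. Scan day separates the arrays in the same way, and its part in these values cannot be told apart from time. The 5 genes were picked in part for being lower on both pairs, so their order over the arrays follows partly from that choice.

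**Figure D3:**
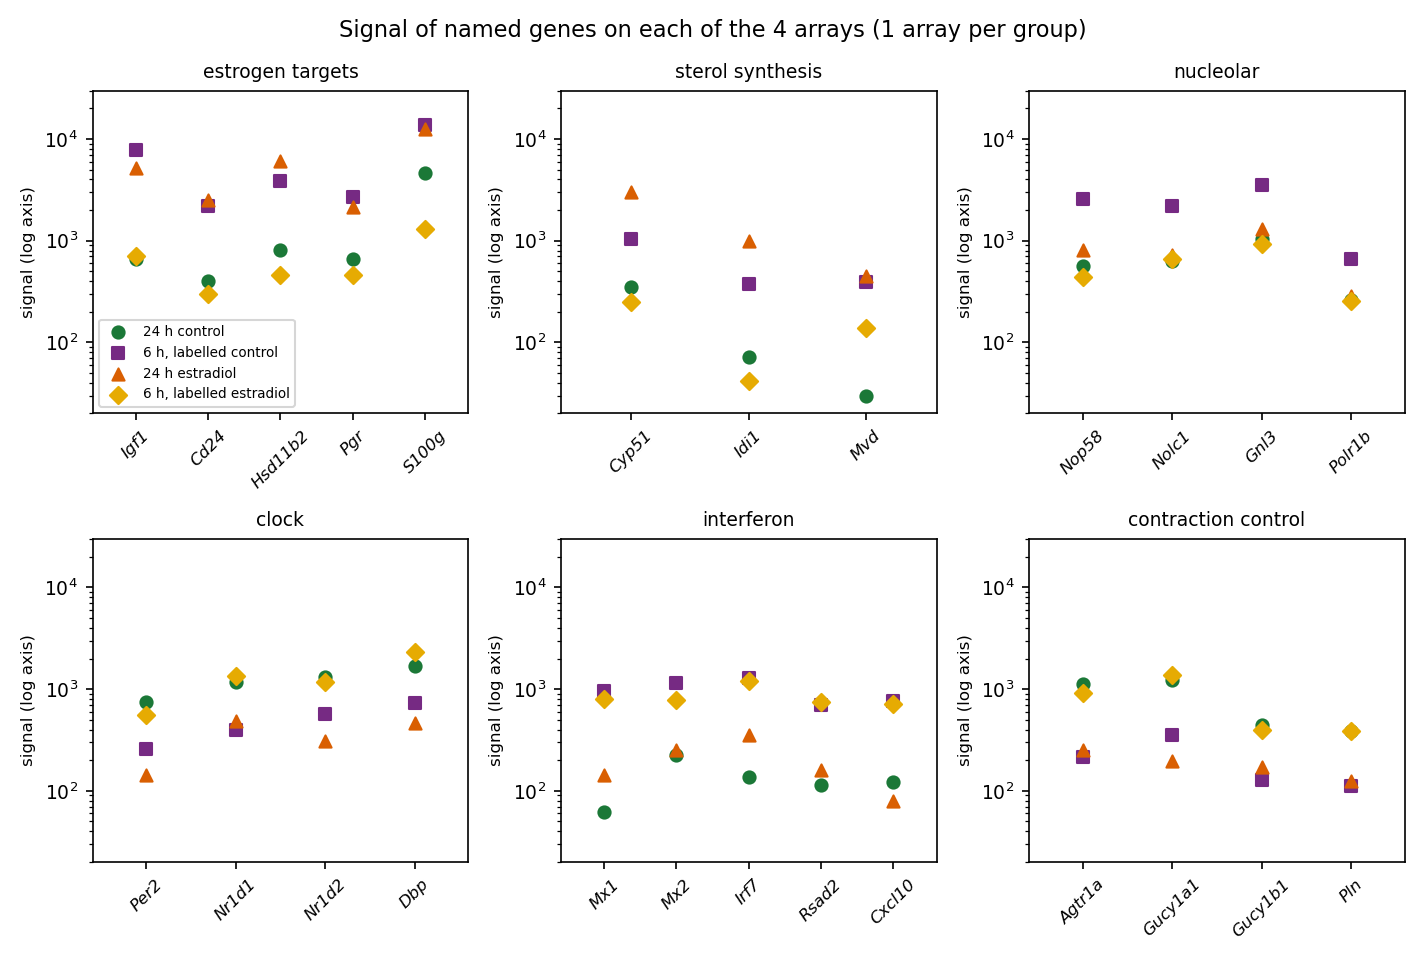
Signal on a log axis of named genes on each of the 4 arrays, 1 array per group, in 6 groups of genes. Estrogen targets, sterol enzymes, clock genes and genes of contraction control have the 24 h control and the labelled 6 h estradiol array on the same side, nucleolar genes are highest on the labelled 6 h control array, and the 5 interferon-induced genes are high on both arrays at 6 h.

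Genes that burn fatty acids or answer fasting had 6 higher and 1 lower of 23 measured, with a median of 0.39. Lpl, the lipase that frees fatty acids from lipoproteins, read 2775 at 24 h and 565 at 6 h, 4.91-fold higher, and all 3 probe sets were higher. Pdk2, a kinase that shuts glucose carbon out of mitochondria, read 1004 against 219.7 and was 4.57-fold higher. The mitochondrial enzymes Acadm and Decr1 were 3.37-fold and 2.52-fold higher, and Acadl was 2.31-fold higher on 1 of its 2 probe sets. Ucp2, a mitochondrial carrier, was the lower gene, 343 against 1344, on 1 of 2 probe sets and low on the 24 h control array alone. In fat synthesis Scd2, which makes unsaturated fat, was 4.46-fold higher, 2055 against 461, with 4 of 6 probe sets higher.

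Detoxifying enzymes had 6 higher and 3 lower of 39 measured, with a median of 0.19. Cat (catalase) read 590.3 against 145 and was 4.06-fold higher, on 2 of 3 probe sets. The conjugating enzymes Mgst1 and Gstt2 were 3.20-fold and 3.44-fold higher, and Ephx1, an epoxide hydrolase, 3.65-fold higher. Outside that list Sult1a1, a sulfotransferase, read 1096 against 215 and was 5.09-fold higher, with both probe sets higher. Other large differences on the higher side were Cyb5a (cytochrome b5), 5.82-fold on its brightest and higher on 2 of 3 probe sets, Mpst, an enzyme of sulfide metabolism, 5.56-fold, and Rrad, a small GTPase of muscle, 5.41-fold. Speg, a kinase of striated and smooth muscle, read 955 against 175 and was 5.47-fold higher, and Hbp1, a repressor of cell-cycle genes, 4.35-fold higher. Casp2, a caspase, read 1240.4 at 24 h and was at the floor at 6 h, at least 11.5-fold higher, with 2 of 3 probe sets higher.

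Genes that set the force of contraction were divided, 7 higher and 6 lower of 45 measured, with a median of 0.04. Agtr1a, the receptor through which angiotensin contracts smooth muscle, read 1131 at 24 h and 217 at 6 h, 5.21-fold higher, and all 4 probe sets were higher. Both subunits of the nitric oxide receptor, which relaxes muscle through cyclic GMP, were higher: Gucy1a1 read 1241 against 353, 3.52-fold, and Gucy1b1 442 against 129, 3.43-fold. Pln, the brake of the calcium pump of the sarcoplasmic reticulum, read 391 against 112, 3.50-fold higher, and the pump isoform Atp2a3 was 3.37-fold higher. Cav1, the coat protein of caveolae, read 2286 against 788, 2.90-fold higher. Nos2, the inducible nitric oxide synthase, read 126 against 548 and was 4.35-fold lower, on 1 of 4 probe sets. Rhoa, which sensitises the contractile apparatus to calcium, was 2.47-fold lower, 484 against 1195.

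The contractile proteins, the defining markers of the tissue, were bright on both control arrays. Acta2 read 16652 and 13964, Actg2 9674 and 14320.2, Des 7192 and 5902, and Tagln 12791 and 12547, none past the rule. Over the 27 measured genes of the smooth muscle cytoskeleton the median was 0.28, with 2 higher and 1 lower and summed signals of 196066 and 167158. Vim (vimentin), which stromal cells share, was 2.66-fold higher, 5208 against 1955, and Tpm3, a tropomyosin, 3.09-fold lower with 4 of 5 probe sets lower. Myh11, the smooth muscle myosin heavy chain, read 17849.6 and 13915 on its brightest probe set, while another probe set read 2651 and 205.

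Markers of other cells were measured beside these. Epithelial markers had 2 higher and 2 lower of 13 measured, with summed signals of 8833 at 24 h and 9249 at 6 h. Of the keratins, Krt18 read 127 against 520.2 and was 4.11-fold lower, whereas Krt8 (206 and 404) and Krt19 (255 and 328) did not pass. Stromal markers had 2 higher and none lower of 9, with summed signals of 19367 and 13650.1, and macrophage genes 1 higher and 4 lower of 22, with 19034 and 18471. Lyz2 (lysozyme), a macrophage gene, read 997 against 3279.7 and was low on the 24 h control array alone. Endothelial markers had 1 higher and 1 lower of 9. Lymphocyte markers had none past the rule of 8, and Cd3d, Cd8a and Cd79b were at the floor on both control arrays. Wt1, a gene of the mesothelium and of uterine stroma, was 4.14-fold higher, 1059 against 256, on 1 of 3 probe sets. The part of these cells in the differences above was not tested.

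Matrix proteases and their inhibitors had 9 higher (30%) and 2 lower (6.67%) of 30, with a median of 0.43. Collagens and other matrix proteins had 4 higher (10.8%) and 1 lower (2.70%) of 37, with a median of 0.35. Over all measured genes 7.99% were higher and 10.1% lower. Mmp11 (stromelysin 3) read 1133 against 489.8 and was 2.31-fold higher. Efemp1, a fibulin of elastic fibres, read 4250.1 against 1763, 2.41-fold higher, with both probe sets higher. Timp1, an inhibitor of matrix proteases, read 1208 against 2873 and was 2.38-fold lower, with both probe sets lower, and Plaur, the urokinase receptor, was 2.63-fold lower. Outside these lists, Ngfr, the low-affinity neurotrophin receptor, read 846 against 5914 and was 6.99-fold lower on 1 of 2 probe sets. Slco2a1, a prostaglandin transporter, read 226 against 1492 and was 6.61-fold lower, with both probe sets lower.

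The arrays labelled estradiol give the same step from 6 to 24 h on arrays that the controls do not share. Of the 276 genes higher between the controls, 14 (5.07%) were also at least 2-fold higher on that pair and 68 (24.6%) lower. Of the 348 lower genes, 33 (9.48%) were lower there and 43 (12.4%) higher. Over all 3394 genes measured on that pair 5.8% were higher and 10.1% lower. As shares of that pair's own 197 higher and 342 lower genes, the 14 and the 33 came to 7.11% and 9.65%, and the 43 and the 68 to 21.8% and 19.9%. Across 6157 probe sets above the floor on at least 1 array, Pearson's r between the differences of the pairs was -0.11, a description over probe sets that are not independent replicates. The differences of Igf1, Sult1a1, Agtr1a and the clock genes Per2, Nr1d1, Nr1d2 and Dbp lie among the opposite ones. Besides the interferon-induced genes, genes past the rule the same way on both pairs included Hipk3, a kinase, at least 3.94-fold higher between the controls, and Dhx36, a helicase, 3.0-fold higher.

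**Figure D4:**
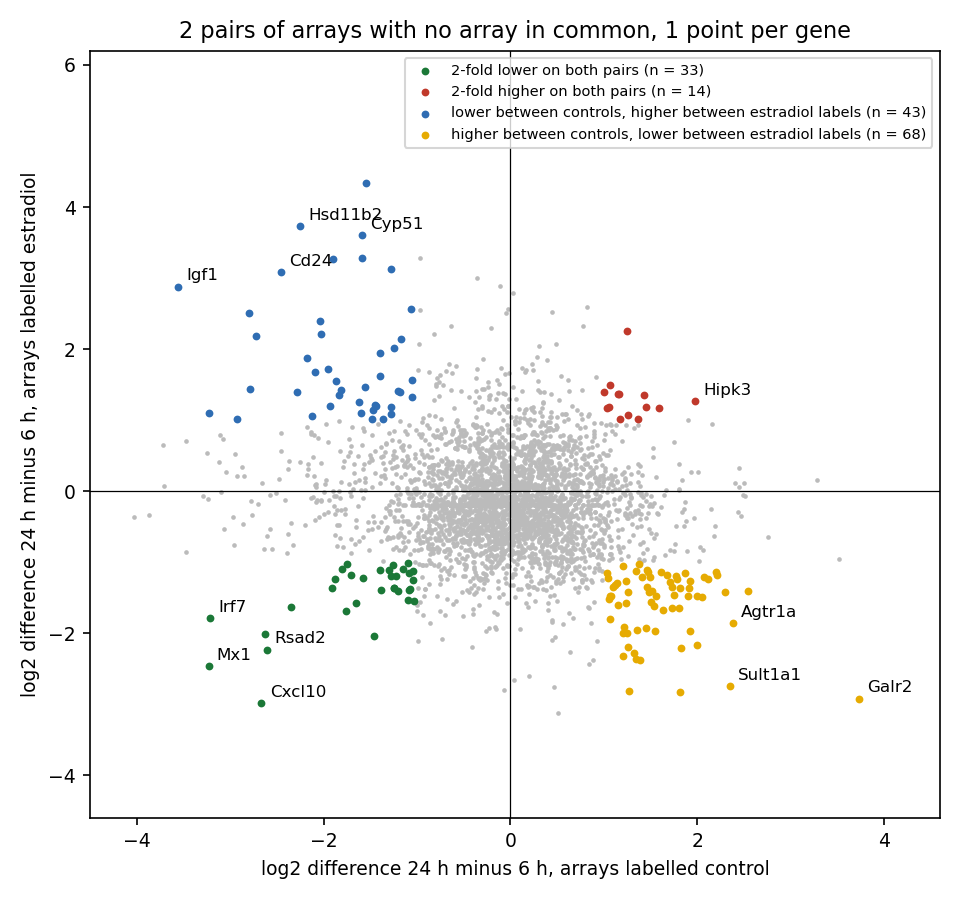
Log2 difference from 6 to 24 h between the arrays labelled control (horizontal) and between the arrays labelled estradiol (vertical), 1 point per gene measured on the control arrays, with genes past the 2-fold rule on both pairs in colour. The 68 genes at the lower right and 43 at the upper left went opposite ways, and the 33 at the lower left, among them Mx1, Cxcl10, Rsad2 and Irf7, went the same way.

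A limma fit of all 4 arrays with time and treatment as terms tested the time term, with 1 residual degree of freedom. With treatment as labelled, limma's test of time called 0 of 6157 probe sets (0%) at an adjusted p of 0.05, the smallest adjusted p being 0.938, and 220 (3.57%) had an unadjusted p under 0.05. With the labels at 6 h exchanged it called 11 (0.179%), 3 higher and 8 lower, and 572 (9.29%) had an unadjusted p under 0.05. Among the 8 were the probe sets of Mx1 (limma adjusted p = 0.00902, -2.85 ± 0.38 SE on the log2 scale) and Cxcl10 (limma adjusted p = 0.00902, -2.83 ± 0.39 SE). Both probe sets of Rsad2 passed in limma (adjusted p = 0.02 and 0.0275), as did 1 of Irf7 (adjusted p = 0.0268), while Mx2 did not pass in limma (adjusted p = 0.0788). The other 3 were 2 probe sets of Rpl21, a ribosomal protein, and 1 of Eef1a1, an elongation factor, whose near-identical gene copies make the source uncertain. The higher ones held the second probe set of Myh11 named above (limma adjusted p = 0.00902) and 2 without a gene symbol. Since the exchange was tried because the labels went against Igf1, Pgr, S100g and Hsd11b2, these p-values are not independent support.

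Several of the largest lower values came from probe sets that were low on the 24 h control array alone, that is at least 2-fold under each of the 3 other arrays. Zfp36, which destabilises cytokine messages, read 124 there and 2029.8, 982 and 1261 on the labelled 6 h control, the 24 h estradiol and the labelled 6 h estradiol array. Psmd11, a proteasome subunit, read 236 against 3089.9, 2682 and 2555 in that order. Copz1, a coat protein of transport vesicles, read 297 against 3309.9, 3786 and 2328. Dkc1, a nucleolar pseudouridine synthase, Taf10, a transcription factor subunit, and Cpsf4, a subunit that processes message ends, had the same pattern. In all, 129 of the 348 lower genes were low on that array alone, which is 3.73% of the measured genes.

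These probe sets were not spread evenly over the array's names. Of 454 probe sets named for expressed sequence tags (short reads of anonymous messages) beginning AA799 or AA800, 68 (15%) were low on the 24 h control array alone, against 79 of 2963 (2.67%) with other tag names and 39 of 5323 (0.733%) with other names. On each of the 3 other arrays between 0.220% and 1.76% of the 454 were low alone. Of the 363 of these measured on the control arrays, 89 (24.5%) were at least 2-fold lower at 24 h and 25 higher, against 258 lower (7.63%) and 332 higher of 3382 without tag names. Without tag names the lower side was thus no longer the larger one. The wash record of the 24 h control array stopped with a communication error, and the part of that error in these values was not tested. These name groups were chosen after the values were seen. Without any tag name, where a gene can be read on another of its probe sets, the nucleolar list had 4 lower of 7 measured and a median of -1.28, the immediate-early list 8 lower of 29 and -0.61, and the sterol list 5 lower of 12 and -0.90. Over all measured genes that setting gave 173 lower and 200 higher of 2216. The clock list holds no tag names in its measured genes, and of the interferon-induced genes only Irf7 among the 5 described does.

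**Figure D5:**
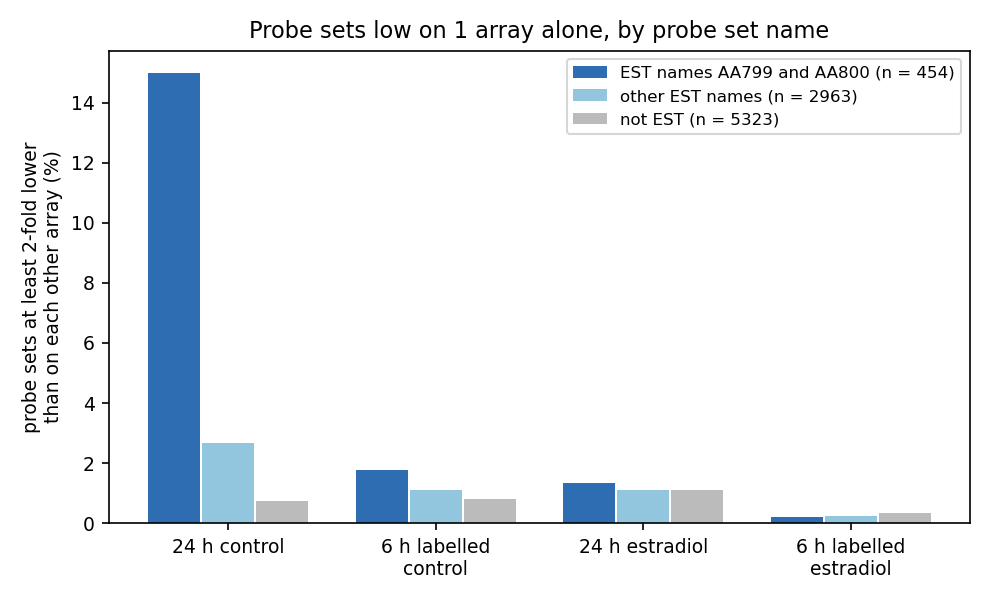
Share of probe sets, in percent, that were at least 2-fold lower on 1 array than on each of the 3 other arrays, by kind of probe set name. The 454 names beginning AA799 or AA800 reach 15% on the 24 h control array and between 0.220% and 1.76% on the others.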

How the data were processed

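The authors deposited 1 table of probe set intensities for the 4 arrays, made with MAS5 per the submitters' processing notes (version not given in the sources used here). Biotin-labelled RNA was hybridised to Affymetrix rat arrays. Scan day, chip lot and wash errors were read from the instrument records, which hold no gene values.

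Signals were scaled to a 2% trimmed mean of 500, floored at the 40th percentile of the array and put on a log2 scale (Python 3.11.15, pandas 2.3.3, numpy 2.4.6). A platform table gave 1 symbol to 7018 of 8799 probe sets, several to 308 and none to 1473, and 4736 genes were named. A gene is its brightest probe set by mean over the arrays. Differences are ratios of 2 arrays, called at 2-fold, with no p-value. The time term was tested with limma 3.58.1 in R 4.3.3 (lmFit and eBayes, Benjamini-Hochberg adjustment over 6157 probe sets). Where labels do not say whether samples are separate, a p-value measures only the spread between these arrays.

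Named genes were the 15 largest differences and 5 largest bounds per direction, up to 6 per direction of each list and up to 8 per pattern across the 2 pairs. Added to these were the genes with the smallest p-values of the limma fit in either direction, and 34 by name. Not all are named. The comparison, the 40 gene lists and these rules were chosen with earlier results of these data known. The 2-fold rule and the limma time term were tested on simulated arrays with changed probe sets at known folds, and the other steps were not. Alternatives were other scalings, floors, folds, probe set choices and the other 6 h array; leaving out tag-named probe sets was added after the data were seen.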

Additional observations from a re-analysis of the deposited data

Results flagged for a closer look

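Some genes passed the 2-fold rule in opposite directions on the pair of arrays labelled control and on the pair labelled estradiol. With 1 array on each side the difference between the pairs was not tested. Values are log2 differences, 24 h minus 6 h, between the arrays labelled control. Among estrogen targets and epithelial genes they were -3.57 for Igf1, -2.25 for Hsd11b2, -2.46 for Cd24, -2.04 for Krt18, -2.03 for Pgr, -1.59 for S100g, -2.80 for Odc1, -1.05 for Oxtr and 3.73 for Galr2. Sterol enzymes gave -1.95 for Mvd, -1.90 for Idi1, -1.87 for Acat2, -1.59 for Cyp51, -1.18 for Sqle and -1.07 for Fdft1. Clock genes gave 1.56 for Nr1d1, 1.55 for Per2, 1.22 for Nr1d2 and 1.21 for Dbp, and the transcription factor Klf9 gave 1.35. Genes of contraction and vessels gave 2.38 for Agtr1a, 1.81 for Gucy1a1, 1.81 for Pln, 1.78 for Gucy1b1, 1.75 for Atp2a3 and -2.12 for Nos2. Enzymes of fat and foreign compounds gave 2.54 for Cyb5a, 2.35 for Sult1a1, 2.30 for Lpl, 1.87 for Ephx1, 1.78 for Gstt2 and 1.68 for Mgst1. Cytokine genes gave 1.99 for Il33, 1.73 for Il15 and -1.55 for Ccl11, and the matrix genes 1.27 for Efemp1, 1.21 for Mmp11 and -1.39 for Plaur. The remaining ones were -2.80 for Ngfr, -2.73 for Slco2a1, -2.09 for Mybbp1a, 2.05 for Wt1 and 2.12 for Hbp1.

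The spiked control transcripts, which no comparison uses, read 1.75-fold higher on the 24 h control array than on the labelled 6 h control array, and 3.09-fold higher on the 24 h than on the 6 h array labelled estradiol.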

How the results depend on the processing

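No paired analysis was possible because each group has 1 array, so the groups share fewer than 2 replicate numbers, and for the same reason no array could be left out. Values as deposited, a common median, quantile normalization and a pseudocount of 32 kept the counts of higher, lower, same-way and opposite-way probe sets within 1.5 times the values reported. In the order higher, lower, same way and opposite way, against 519, 582, 105 and 183, the counts were 846, 1050, 290 and 320 with a floor at the 20th percentile and 270, 312, 36 and 116 at the 60th. They were 1130, 1210, 448 and 605 with a 1.5-fold rule and 157, 253, 18 and 44 with a 3-fold rule. Leaving out probe sets with suffixed names gave 307 higher and 67 the same way. Without any tag name, an alternative added after the data were seen, 332 were higher and 258 lower, and without names beginning AA799 or AA800 494 and 493. The limma fit called 11 probe sets with the 6 h labels exchanged and 0 under each other alternative run.

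With the array labelled estradiol at 6 h in place of the array labelled control, 170 probe sets were higher and 439 lower. The log2 difference of these named genes then turned sign, to 0.50 for Pgr, 1.82 for S100g, 0.81 for Hsd11b2, 0.42 for Cd24, 0.31 for Krt18, 0.48 for Cyp51, 0.39 for Nop58, 0.17 for Gnl3, 0.054 for Polr1b, 0.25 for Il4r, 1.04 for Ccl11, 0.48 for Myc, 0.057 for Bhlhe40, 0.24 for Azin1, 0.26 for Timp1, 0.35 for Plaur and 0.60 for Ngfr, and to -0.0082 for Galr2, -0.0040 for Klf9, -0.20 for Nr1d1, -0.48 for Dbp, -0.26 for Gstt2, -0.16 for Gucy1a1 and -0.17 for Il33. Another 49 named genes lost their call without turning sign. Among them were Igf1 (1.06-fold), Ccl2 (1.37-fold), Agtr1a (1.23-fold) and Per2 (1.35-fold). A further 30 were called, or not called, as before. Of these, Mx1, Mx2, Irf7, Rsad2 and Cxcl10, picked in part for being lower on both pairs, stayed at least 2-fold lower. The medians of the estrogen, sterol, nucleolar and cytokine lists turned sign as well, and those of the clock, immediate-early and interferon lists did not. However, the clock median fell to 0.11, with 1 gene higher of 10. The immediate-early median came to -0.06, with 6 genes lower of 36, and the interferon median was -0.53. Over all genes measured with that array in place, 77 were higher and 272 lower of 3413. Among other alternatives, Esr1 turned to -0.016 with a floor at the 60th percentile, Igfbp5 to 0.19 with the mean of its probe sets and 2.39 without suffixed probe sets, and, also without these, Cyb5a to -0.31 and Acadl to -0.10, where both arrays were at the floor. Beyond the replaced array and these alternatives, the cause was not tested.

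Depth is set by signal over background: genes near the floor, such as Esr1, Oxtr and Bmal1, have only bounds or values close to the rule, and no value has replicate error. Scaling moved the median of all genes by less than 0.1 on the log2 scale. It turned the sign of the list medians of ribosomal proteins and housekeeping genes (quantile) and of ion channel and nerve genes (common median).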

Other observations

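Of 19 measured heat shock genes and chaperones 3 (15.8%) were at least 2-fold higher at 24 h on the control arrays and none lower, against 7.99% higher and 10.1% lower over all measured genes. The list as a whole was not higher, with a median of -0.25 and only 8 of the 19 on the higher side. Hspa1a, the inducible HSP70, read 1703 against 774. Hspb6, a small heat shock protein of smooth muscle, read 917 against 453, and Cryab, a relative, was 2.07-fold higher. Both lie close to the threshold and lost the call with a pseudocount of 32, and the other probe set of Hspb6 was 1.44-fold higher and did not pass. Folding genes of the endoplasmic reticulum had 1 lower of 22 (Erp29, 692 against 1642, low on the 24 h control array alone), and the proteasome 2 lower of 24 (8.33%), Psmd11 and Psmc3. On the arrays labelled estradiol the folding genes had 11 higher and 1 lower of 23 measured, and the proteasome 5 higher and none lower of 24. Over all genes measured on that pair 5.8% were higher and 10.1% lower.

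Signals of the TGF-beta family had 4 lower (20%) and 1 higher (5%) of 20 measured, against 10.1% and 7.99% over all measured genes. The median of that list was 0.18. Inhba, the activin subunit, read 204 against 454 and was 2.22-fold lower, and Smad4, which carries these signals to the nucleus, was at the floor at 24 h and read 345 at 6 h, on a probe set low on the 24 h control array alone. In polyamine control Azin1, which protects Odc1 from its inhibitor, read 481 against 1157 and was 2.40-fold lower on its brighter probe set, while the other read 254 and 251 and the call was lost with the mean of the probe sets.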
